A study of Rattus norvegicus with 12 samples.

Results

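The vascular miRNAs described here were rno-miR-126, rno-miR-143, rno-miR-145, rno-miR-221 and rno-miR-222 (miR-126 and so on below), 5 of the 677 rat miRNAs on the array. They were chosen by name, without their star strands, and not by their measured values, though with earlier results of these data known. miRNAs are short RNAs that bind messenger RNAs through their seed and lower the stability or translation of these messengers. miR-126 is made from an intron of Egfl7, a gene of endothelial cells, and is known for its role in vessel growth and in endothelial signalling. miR-143 and miR-145 are made from 1 transcript that is abundant in smooth muscle and are known for keeping vascular smooth muscle in its contractile state. miR-221 and miR-222 are neighbours on the X chromosome and are made by several cell types, among them endothelium and proliferating smooth muscle, where they are known to target Kit and cell cycle inhibitors.

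Soleus muscle, a slow postural muscle of the hind limb, came from 12 male Sprague-Dawley offspring at the age of 1 year. Of these, 6 were born to control dams fed chow and 6 to dams given a high fat diet, rich in saturated fat and sucrose, from before mating through pregnancy and lactation. All offspring ate chow after weaning, so that both groups differed in the diet of the dam. One array was run per rat, with 100 ng of total RNA, and the arrays lay on 2 slides with 3 rats of each group per slide. The labels name each rat separately but do not give litters, so p-values measure the spread between these rats. The number of arrays limits the precision.

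The mature sequences of the members are shown because their seeds set the families. Capitals mark the seed, bases 2 to 8 from the 5′ end. All sequences and positions are from RefSeq, on the rat build GRCr8, and 6 of 6 names sought were matched.
miR-126: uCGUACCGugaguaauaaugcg
miR-126*: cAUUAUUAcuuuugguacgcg
miR-143: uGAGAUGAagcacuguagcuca
miR-145: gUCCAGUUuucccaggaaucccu
miR-221: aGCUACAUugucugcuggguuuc
miR-222: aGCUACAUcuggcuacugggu
miR-126 lies at chr3:29813219-29813240 on the plus strand and its star strand, cut from the other side of the same hairpin, at chr3:29813182-29813202. Both positions fall within Egfl7. miR-143, at chr18:57371373-57371394, and miR-145, at chr18:57370033-57370055, lie on the minus strand within the long non-coding gene Carmn. miR-221, at chrX:6023246-6023268, and miR-222, at chrX:6022682-6022702, lie on the plus strand within the same pair of uncharacterised genes. miR-221 and miR-222 share their first 8 bases, and no other of the 693 mature sequences in the RefSeq table had their seed. Beyond the seed they diverge, with 11 of 21 positions equal when both are read from the first base. The seeds of miR-126, miR-126*, miR-143 and miR-145 each occurred once in that table.

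Values are scaled signals, that is the array's total signal for a miRNA after each array was divided by its own 75th percentile. A probe's signal depends on its sequence, so that levels were compared between rats and not between miRNAs. Of the 5 members, 4 were detected on all 12 arrays and miR-222 on 2 arrays. Over the array, 162 miRNAs were detected on all arrays and 432 on none. Between 177 and 220 miRNAs were detected per array, and the unscaled 75th percentile ran from 864 to 1911 signal units. The library of the high fat rat H3 stood apart. It was the lowest of the 12 rats in 64 of the 162 miRNAs detected on all arrays (39.5%), miR-126, miR-143 and miR-145 among them. Results are therefore given with and without H3.

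**Figure D1:**
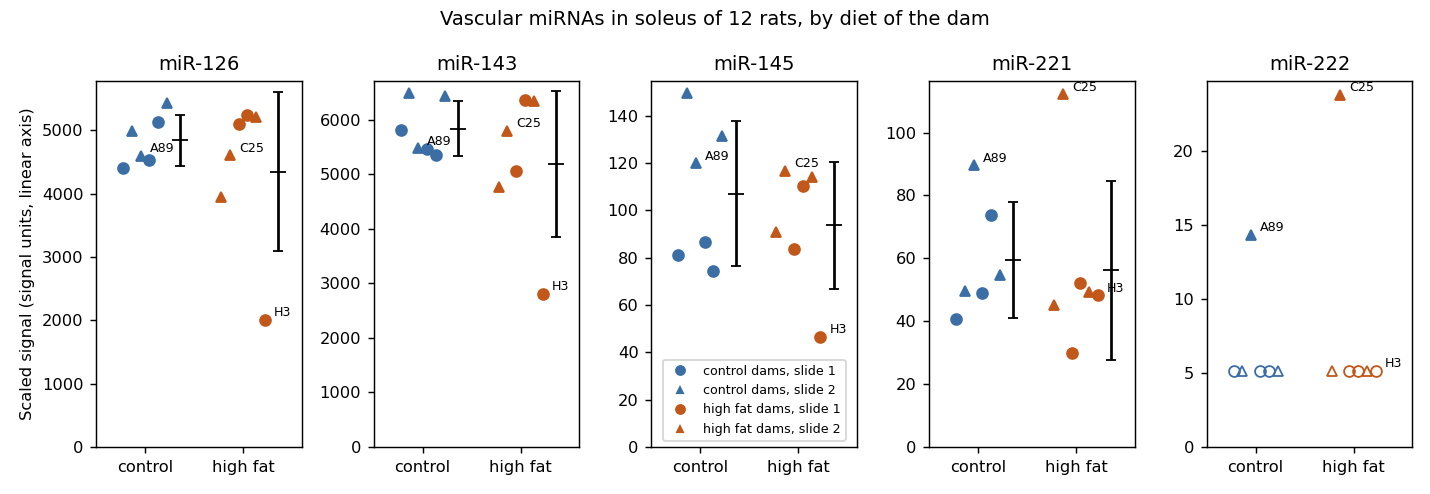
Scaled signal (linear axis, signal units) of the 5 members in soleus of 12 rats, by diet of the dam, with circles for slide 1 and triangles for slide 2. Filled points are detected, open points stand at the floor of 5.17, and bars give the mean and SD of 6 rats (none for miR-222). H3 is lowest for miR-126 (2004), miR-143 (2813) and miR-145 (46.5), and C25 and A89 are highest for miR-221 (112 and 89.6).

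The endothelial member miR-126 had similar levels in both groups apart from H3. In control offspring its scaled signal had a lowest value of 4398, a median of 4791 and a highest value of 5427, with a mean of 4844 ± 399 (SD, n = 6). In the high fat group these were 2004, 4850 and 5239, with a mean of 4350 ± 1249 (SD, n = 6). The 5 high fat rats other than H3 lay between 3951 (A37) and 5239 and overlapped with all control rats but the highest, H10. Their mean was 4819 ± 548 (SD, n = 5). The log2 fold change, high fat minus control, was -0.22 (limma, SE 0.22, 95% interval -0.69 to 0.25, adjusted p = 0.703). Without H3 it was -0.01, with an interval of -0.27 to 0.25. The coefficient of variation over the 12 rats was 20.04%, and the scanner software's own error of the signal was at least 7.71% on each array.

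miR-143, the first of the smooth muscle pair, showed the same picture. Control offspring had a lowest scaled signal of 5358, a median of 5646 and a highest of 6492 (mean 5841 ± 508, SD, n = 6). Offspring of high fat-fed dams had 2813, 5431 and 6369 (mean 5193 ± 1336, SD, n = 6). H3 again lay below all others, and the remaining high fat rats ran from 4770 to 6369, across most of the control range. The log2 fold change was -0.22 (limma, SE 0.19, 95% interval -0.63 to 0.20, adjusted p = 0.700), and -0.05 without H3 (interval -0.31 to 0.22).

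miR-145, its partner from the same transcript, varied more from rat to rat than miR-143, with a coefficient of variation of 28.2% against 18.5%. Its scaled signal in control offspring had a lowest value of 74.3, a median of 103 and a highest of 149 (mean 107 ± 30.8, SD, n = 6). The high fat group had 46.5, 100 and 117 (mean 93.6 ± 26.7, SD, n = 6). The groups overlapped, and only H3 among the high fat rats was below the lowest control rat. The log2 fold change was -0.21 (limma, SE 0.25, 95% interval -0.75 to 0.34, adjusted p = 0.736), and -0.02 without H3 (interval -0.46 to 0.42).

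miR-221 was the most variable of the 4 members detected throughout, with a coefficient of variation of 39.7%. Control offspring had a lowest scaled signal of 40.5, a median of 52.2 and a highest of 89.6 (mean 59.5 ± 18.4, SD, n = 6). Offspring of high fat-fed dams had 29.9, 48.7 and 112 (mean 56.1 ± 28.6, SD, n = 6). Each group held rats far above its median, C25 (112) in the high fat group and A89 (89.6) and C73 (73.8) in the control group, while H3, at 48.3, was in the middle. The log2 fold change was -0.15 (limma, SE 0.29, 95% interval -0.77 to 0.46, adjusted p = 0.879), and -0.14 without H3 (interval -0.81 to 0.54).

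miR-222, which shares the seed of miR-221, was detected in 1 rat of each group, C25 with a scaled signal of 23.8 and A89 with 14.3. These were the rats with the highest miR-221, and both were on slide 2. On the other 10 arrays it was not detected, and its detection was the same in both groups, 1 of 6 rats (Fisher's exact test, two-sided, p = 1). No fold change is given for it.

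Across the 4 tested members none passed an adjusted p under 0.05, and 0% of the 193 miRNAs tested, those seen on 6 or more arrays, did so. At an unadjusted p under 0.05 limma called 2 of the 193 (1.04%) and none of the members. Each member had a lower mean in offspring of high fat-fed dams, as did 154 of the 193 miRNAs (79.8%), and the median log2 change over all tested was -0.17. This shift depended on the scaling, and the median was 0.14 without scaling, where the values of miR-126, miR-143, miR-145 and miR-221 were also above 0. The exact two-sided permutation test over 924 assignments gave p = 0.457 for miR-126, 0.307 for miR-143, 0.468 for miR-145 and 0.621 for miR-221. Within slides, over 400 assignments, the exact permutation p was 0.465, 0.295, 0.33 and 0.6 in the same order. On slides 1 and 2 the log2 differences were -0.31 and -0.13 for miR-126, -0.30 and -0.13 for miR-143, -0.09 and -0.32 for miR-145, and -0.32 and 0.01 for miR-221. The adjusted p of the difference between slides in limma ran from 0.883 to 0.904. The intervals do not show that the groups were alike, and without H3 they still span changes of about 0.25 in log2 for miR-126 and of over 0.5 for miR-221. In a whole muscle, fewer vascular cells and less of a miRNA per cell cannot be told apart.

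**Figure D2:**
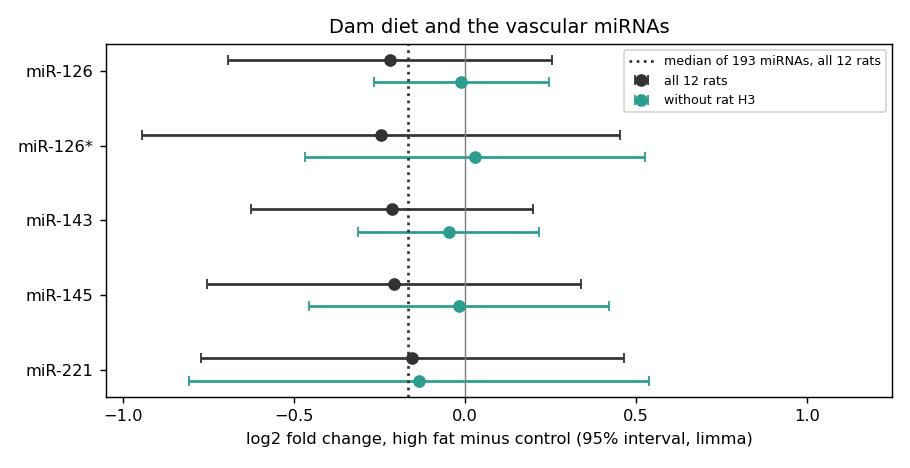
Log2 fold change of the scaled signal, high fat minus control, for the 4 tested members and miR-126*, with 95% intervals from limma for all 12 rats (dark) and without H3 (green). The dotted line is the median of the 193 tested miRNAs (-0.17), and every interval includes 0, with miR-126, miR-143 and miR-145 moving to between -0.05 and -0.01 without H3.

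The endothelial member was then set against the smooth muscle members within each rat, as the log2 ratio of their signals on 1 array. This ratio does not depend on the scaling of the array. Its difference between the diets, high fat minus control, was -0.01 for both miR-126 over miR-143 and miR-126 over miR-145 (exact two-sided permutation p = 0.950 and 0.937). For miR-126 over miR-221 it was -0.07 (exact permutation p = 0.853). For miR-143 over miR-145 it was -0.01, for miR-143 over miR-221 -0.06 and for miR-145 over miR-221 -0.05. The p adjusted over the 10 pairs of members was 0.957 for each of these 6.

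miR-126, miR-143 and miR-145 were correlated over the 12 rats with the scaling used, but not past the threshold with quantile normalization. For miR-126 and miR-143, Pearson's r of the log2 scaled signals was 0.94 (permutation p = 0.00163, adjusted over 10 pairs 0.00815) and Spearman's rho 0.63 (permutation p = 0.0311, adjusted 0.104). For miR-143 and miR-145, r was 0.86 (permutation p = 0.00081, adjusted 0.0081) and rho 0.73 (permutation p = 0.00856, adjusted 0.0751). For miR-126 and miR-145, r was 0.76 (permutation p = 0.0139, adjusted 0.0346) and rho 0.43 (permutation p = 0.164, adjusted 0.301). With quantile normalization r was 0.78, 0.71 and 0.65 in the same order (permutation p adjusted 0.127, 0.0803 and 0.127). Over 18 alternatives, rho among them, the correlation ran from 0.63 to 0.97, 0.70 to 0.97 and 0.32 to 0.89 in the same order. These members share the array, its scaling and the tissue. With the scaling used, r over all 13041 pairs of the 162 miRNAs detected throughout had a median of 0.22. Of these r, 90% lay between -0.48 and 0.80, which includes the 0.76 of miR-126 and miR-145. With quantile normalization 90% lay between -0.69 and 0.73, which includes the 0.71 and 0.65 but not the 0.78.

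How far the co-variation rested on single rats differed between the pairs. Without H3 and A37, the rats farthest from the median of the first-named member, r fell to 0.40 for miR-126 and miR-143 and to 0.27 for miR-126 and miR-145, so that both relations rested on these rats. It was 0.74 for miR-143 and miR-145. With only H3 left out r was 0.64, 0.32 and 0.70 for miR-126 with miR-143, miR-126 with miR-145 and miR-143 with miR-145, and none of the 3 passed after adjustment (permutation p adjusted 0.109, 0.692 and 0.099).

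Within slide 2, which does not hold H3, r was 0.96 for miR-126 and miR-143 (exact permutation p = 0.00972, n = 6) and rho 0.83 (exact permutation p = 0.0583). For miR-143 and miR-145 it was 0.85 (exact permutation p = 0.0347) with a rho of 0.77 (exact permutation p = 0.103), and for miR-126 and miR-145 0.75 (exact permutation p = 0.0917) with a rho of 0.49 (exact permutation p = 0.356). Within slide 1, with H3, r in the same order of pairs was 0.95, 0.95 and 0.90 (exact permutation p = 0.0792, 0.0181 and 0.0569), and rho was 0.49, 0.71 and 0.60 (exact permutation p = 0.356, 0.136 and 0.242). Without H3, r over the 5 rats left on this slide was 0.02, 0.75 and 0.32 in that order, given as a description since 5 rats are under the minimum of 6 set for a tested correlation. The relation of miR-126 to miR-143 within slide 1 thus rested on H3. Among these 5 rats miR-126 ran from 4398 to 5239 and miR-143 from 5067 to 6369, with A110 lowest of the 5 in miR-126 (4398) and second highest in miR-143 (5810).

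When each diet group and slide was centred on its own mean and H3 left out, a check added after the values were seen, r was 0.88 for miR-143 and miR-145 (permutation p adjusted 0.0055), 0.66 for miR-126 and miR-143 (adjusted 0.0943) and 0.40 for miR-126 and miR-145 (adjusted 0.559). These p-values take no account of the means that were removed. Of the 3 pairs, the one made from a single transcript had an adjusted p under 0.05 here. By r over both slides without this centring, the same pair was not the closest on the array. There miR-145 ranked about 17 of 161 among the partners of miR-143, and about 11 without H3. Ranks with centring were not computed.

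miR-221 had no correlation past the threshold with miR-126, miR-143 or miR-145. Its r with them was 0.09, 0.15 and 0.29, and rho was 0.41, 0.38 and 0.52 (permutation p of r 0.734, 0.588 and 0.358, adjusted 0.816, 0.816 and 0.596, and of rho 0.184, 0.228 and 0.0831). Without the 2 farthest rats r was -0.22, 0.03 and 0.43. With miR-222 r was 0.81 (permutation p = 0.00721, adjusted 0.024) and rho 0.65 (permutation p = 0.015, adjusted 0.0751), and the adjusted p of r was 0.0905 without H3. The relation rests on C25 and A89, since the other 10 miR-222 values are all the floor value.

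**Figure D3:**
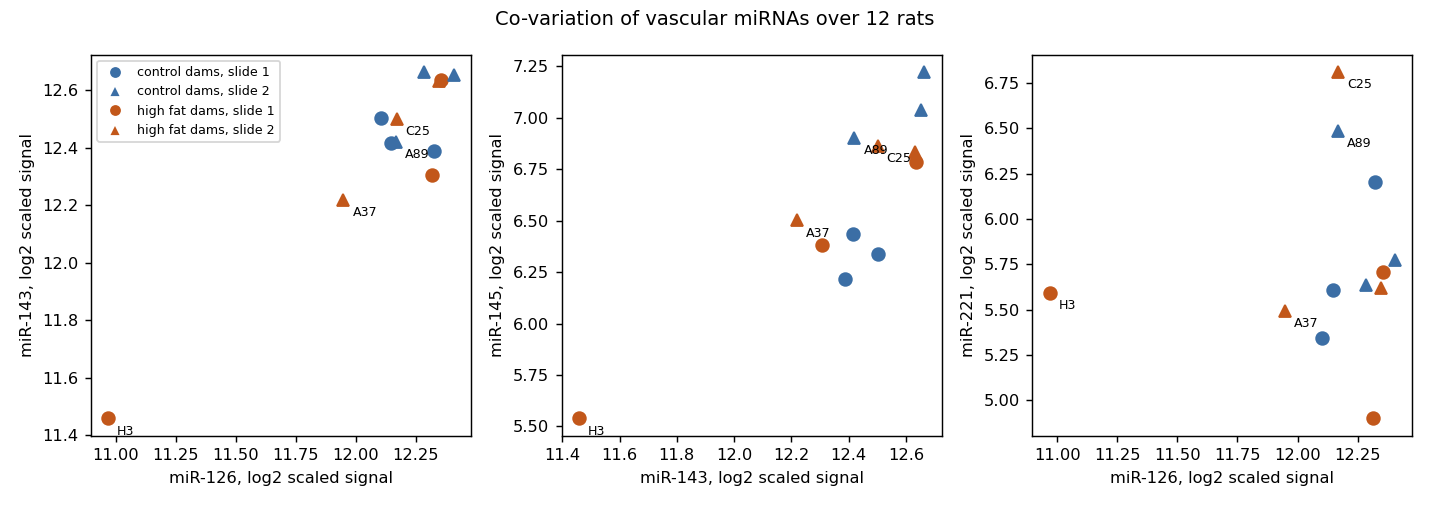
Log2 scaled signals of 3 pairs of members over 12 rats, coloured by diet of the dam, circles for slide 1 and triangles for slide 2. H3 lies far below the others for miR-126, miR-143 and miR-145 (r of 0.94 for the first pair with H3 and 0.64 without it), while the r of miR-221 and miR-126 is 0.09.

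The miRNAs most like each member over the 12 rats were found by Pearson's r among the 162 detected throughout. For miR-126 they were miR-322 (0.96), miR-143 (0.94) and miR-196b (0.94), which came to 0.73, 0.64 and 0.46 without H3. For miR-143 they were miR-27b (0.95), miR-126 (0.94) and miR-499 (0.93), or 0.70, 0.64 and 0.52 without H3. For miR-145 they were miR-352 (0.96), miR-450a (0.94) and miR-196c (0.94), and here the values without H3 were 0.94, 0.87 and 0.88. For miR-221 they were miR-100 (0.80), miR-335 (0.79) and miR-494 (0.77), with 0.84, 0.79 and 0.80 without H3. The partners named for miR-145, like miR-145, had higher means on slide 2 than on slide 1. The log2 difference, slide 2 minus slide 1, was 0.69 for miR-352, 0.63 for miR-450a, 0.90 for miR-196c and 0.61 for miR-145. In limma the adjusted p was 0.028, 0.067, 0.012 and 0.0758 in the same order. The part of the slides in the likeness of these miRNAs to miR-145 was not tested.

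In H3, other tissue markers differed along with the vascular miRNAs. Of 6 listed muscle fibre miRNAs, 5 were matched to the array by name, and all 5 were detected on all arrays. Among these, H3 was below the other rats in some and above them in others. The sixth, miR-208b, is on the array as miR-208b-3p but was not matched, and it is not in the sum below. Its log2 change, high fat minus control, was -0.51 (limma, adjusted p = 0.733) and 0.03 without H3, so H3 was low in it. miR-499, made from a slow myosin gene, was 366 in H3 against 5051 to 7994 in the other high fat rats, and miR-206 was 9354 against 30841 to 60699. miR-1, in contrast, was 136123 in H3 against 51591 to 95300 and at most 106415 in control offspring. miR-133a was 2976 against 1534 to 2460 in the other high fat rats, but up to 3416 in control offspring, and miR-133b, at 96266, was within both ranges. The summed level of the 5 matched fibre miRNAs in H3, 245085, was within the range of the other high fat rats (148101 to 261037) and of control offspring (165345 to 289710). Most of this sum was miR-1 and miR-133b, so that it hardly registers the low miR-499 and miR-206. The erythroid list (2 of 3 matched) summed to 3295 in H3 against 458 to 1522 in the other high fat rats and 643 to 2636 in control offspring. The leukocyte list (4 of 5) summed to 1219 against 1482 to 1905 and 1411 to 1897. Of this list only miR-150 was below both groups (304 against 503 to 790 and 540 to 765). Its miR-223, miR-142-3p and miR-142-5p were within both ranges in H3. The fibroblast list (3 of 3) summed to 2342 against 2469 to 7391 and 2755 to 7094. Its miR-214, at 354 in H3, was within both groups (252 to 907 and 304 to 1056). Of the epithelial list, all 5 on the array, miR-200a (12.2) and miR-200b (8.82) were detected in H3 and in no other rat, and the other 3 on no array. The part of these differences in the low vascular levels of H3 was not tested.

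As a check of the labelled tissue, the 5 matched fibre miRNAs were detected in every rat. Detection alone cannot tell soleus from another skeletal muscle. The levels of miR-499 (366) and miR-206 (9354) in H3 were below those of all other rats. miR-208b-3p was not part of that check or of the sums used here, and its lower mean in high fat offspring rested on H3. Of 16 relations between the 4 members and the summed muscle fibre, erythroid, leukocyte and fibroblast lists, computed after the values were seen, none had a permutation p under 0.05 after adjustment. The smallest unadjusted p was that of miR-221 with the fibroblast list of miR-199a-3p, miR-199a-5p and miR-214, with an r of 0.72 (permutation p = 0.00482, adjusted 0.0528) and a rho of 0.70 (permutation p = 0.0144, adjusted 0.204). The rats with the highest miR-221, C25, A89 and C73, had the highest fibroblast sums, 7391, 7094 and 6694, and the other rats lay between 2342 and 5658. Without C25 and H3, the farthest from the median of that sum, r was 0.69. Within slide 2 it was 0.96 (exact permutation p = 0.00278, n = 6) with a rho of 0.94 (exact permutation p = 0.0167), and within slide 1 it was 0.61 (exact permutation p = 0.206) with a rho of 0.54 (exact permutation p = 0.297). miR-126 with the leukocyte list had an r of 0.72 (permutation p = 0.0066, adjusted 0.0528) and a rho of 0.60 (permutation p = 0.0434, adjusted 0.232), the same adjusted p of r as for miR-221. Its r was 0.37 without H3 and A110 and 0.46 without H3, where that of miR-221 with the fibroblast list was 0.75 (permutation p adjusted 0.334 and 0.106).

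**Figure D4:**
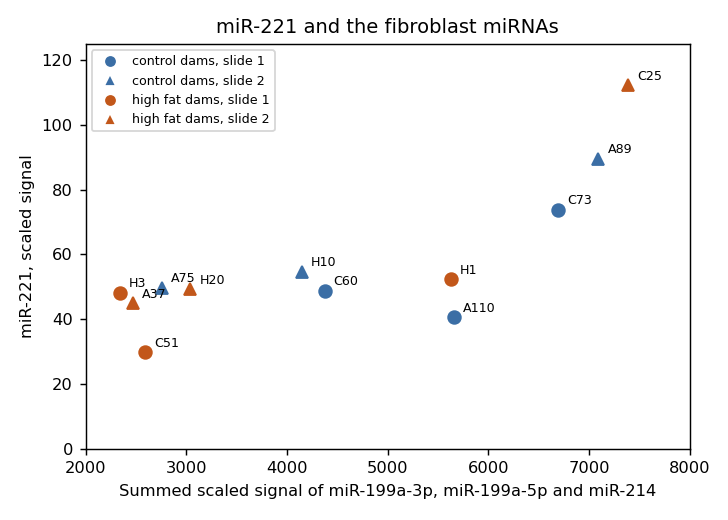
Scaled signal of miR-221 (vertical axis from 0) against the summed scaled signal of the 3 fibroblast miRNAs (horizontal axis from 2000) in 12 rats, coloured by diet of the dam, circles for slide 1 and triangles for slide 2. C25, A89 and C73 are highest on both axes and the remaining 9 rats lie at or below 54.7 for miR-221.

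C25 and A89, both on slide 2, were set apart by more than miR-221 and miR-222. Of the 12 miRNAs detected on exactly 2 arrays, 4 (33.3%) were detected in this pair of rats, namely miR-143*, miR-205, miR-222 and miR-455*. miR-143*, the star strand of miR-143, had scaled signals of 7.08 in C25 and 7.25 in A89, near the floor of 5.17. Both arrays also detected many miRNAs, 212 and 220. The part of this, and of the slide, in the detection of miR-222 was not tested. They were the 2 highest rats in 11 of the 162 miRNAs detected throughout (6.79%), miR-221 among them.

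The star strands separated the members further. miR-126* was detected on all 12 arrays, miR-143* on 2, and miR-145*, miR-221* and miR-222* on none. The mean scaled signal of miR-126* in the control group was 373 ± 108 (SD, n = 6). In the high fat group it was 333 ± 132 (SD, n = 6), with a log2 fold change of -0.25 (limma, SE 0.32, adjusted p = 0.766). Without H3 it was 0.03. Although both strands come from 1 hairpin, miR-126* ranked about 25 of 161 among the partners of miR-126, with an r of 0.79. Without H3 it ranked about 107, with an r of 0.18. Both r pool the 2 slides, between which the ratio of the strands shifted. The SD of the log2 ratio of miR-126* over miR-126 was 0.09 within each slide and 0.38 over all 12 rats. The group means hide a difference between the slides, which was looked at after the values were seen. All 6 rats of slide 2 (394 to 506, mean 451 ± 41.3, SD, n = 6) had more miR-126* than all 6 of slide 1 (117 to 323, mean 255 ± 73.1, SD, n = 6). The log2 difference, slide 2 minus slide 1 with diet in the fit, was 0.89 (limma, SE 0.21, adjusted p = 0.0261), and 0.68 without H3 (adjusted p = 0.00568). Over all tested miRNAs 15 of 193 passed between the slides (7.77%), 5 of them higher on slide 2 (2.59%), and in 4 (2.07%) all rats of slide 2 were above all of slide 1. Counted in either direction, 9 (4.66%) did not overlap between the slides. With the 75th percentile over all miRNAs as the scale the adjusted p for miR-126* was 0.0627, and without scaling 0.00578. The median slide difference of all tested was -0.07 with the scaling used, 0.14 with that percentile and 0.33 without scaling.

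Of the members, miR-145 differed most between the slides. It ran from 46.5 to 110 on slide 1 (mean 80.3 ± 20.7, SD, n = 6) and from 90.6 to 149 on slide 2 (mean 120 ± 19.5, SD, n = 6), with overlap between the slides. The log2 difference was 0.61 (limma, SE 0.19, adjusted p = 0.0758), and 0.47 without H3 (adjusted p = 0.0818). The adjusted p was 0.0082 without scaling, 0.171 when arrays were scaled over all miRNAs and 0.0938 with quantile normalization. For miR-126, miR-143 and miR-221 the log2 slide differences were 0.18, 0.23 and 0.41 (limma, adjusted p = 0.738, 0.606 and 0.557).

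Ratios within an array showed the slide difference free of the scaling. The log2 ratio of miR-126* over miR-126, less its mean over the 12 rats, ran from -0.49 to -0.23 on slide 1 and from 0.22 to 0.46 on slide 2. The difference was 0.70, also 0.70 without H3 (exact two-sided permutation p = 0.00216, the smallest that 6 against 6 allow, adjusted over 11 ratios 0.0119). The ratio of miR-145 over miR-143, from neighbouring hairpins of 1 transcript, ran from -0.36 to -0.04 on slide 1 and from 0.01 to 0.37 on slide 2, a difference of 0.38 (exact permutation p = 0.00216, adjusted 0.0119) and of 0.40 without H3. Among all pairs of miRNAs detected throughout, 942 of 13041 ratios (7.22%) did not overlap between the slides. The ratio of miR-126 over miR-145 differed by -0.43 (exact permutation p = 0.00649, adjusted 0.0238), and that of miR-126 over miR-143 by -0.05 (exact permutation p = 0.576, adjusted 0.643). Both diets showed the shift of miR-126* over miR-126, and this ratio differed by -0.03 between the diets (exact permutation p = 0.842). For miR-145 over miR-143 the shift was larger in control rats, from -0.36 to -0.17 on slide 1 and from 0.20 to 0.37 on slide 2. High fat rats ran from -0.11 to -0.04 and from 0.01 to 0.18. Whether the diets differed in this shift was not tested. The slide was read from the array barcode, and what else differed between the slides was not tested.

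**Figure D5:**
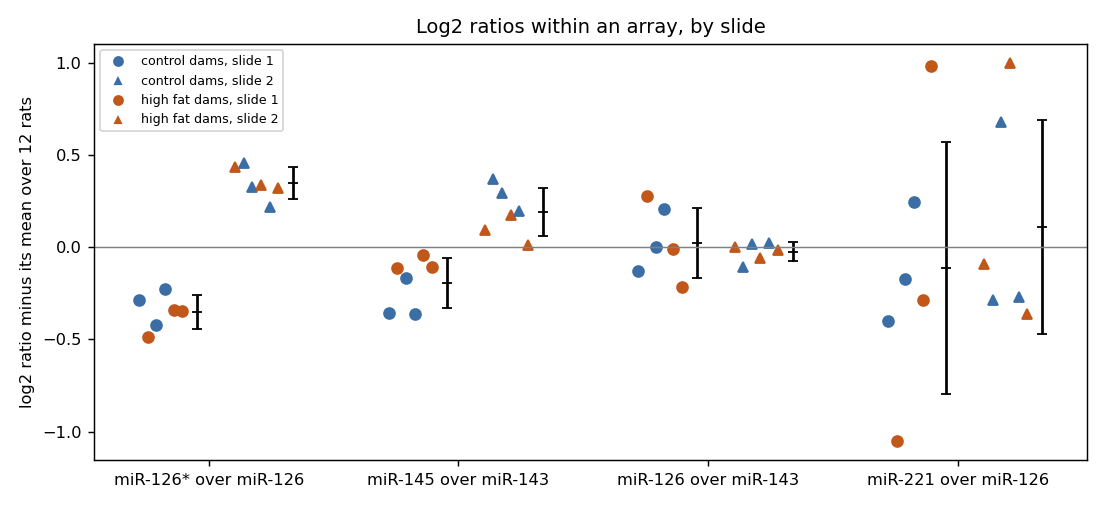
Log2 ratio of a pair of miRNAs within each array minus its mean over the 12 rats, by slide (circles slide 1, triangles slide 2), coloured by diet of the dam, with mean and SD of 6 rats. miR-126* over miR-126 and miR-145 over miR-143 do not overlap between slides (differences of 0.70 and 0.38), while miR-126 over miR-143 (-0.05) and miR-221 over miR-126 do.

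The wider set of endothelial and angiogenic miRNAs held 16 names besides the members, all on the array and 13 of them tested. None passed an adjusted or an unadjusted p under 0.05 for the diet of the dam in limma. Of the 13, 2 lay above 0 and 11 below, between -0.36 and 0.18 in log2, with a median of -0.16 against -0.17 over all tested, and -0.10 against -0.12 without H3. The largest values were those of miR-210, which responds to low oxygen (-0.36, adjusted p = 0.685), and of miR-27a, from the miR-23a cluster (-0.34, adjusted p = 0.685). Of this set miR-126* alone passed between the slides.

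The wider set of smooth muscle and vessel wall miRNAs held 14 names, 12 of them matched to the array by name and 7 of these tested. miR-10a, on the array as miR-10a-5p, was not matched and is not in the counts and medians given here. Its log2 change was -0.11 (limma, adjusted p = 0.736), and -0.07 without H3. None passed after adjustment and 1, miR-204, had an unadjusted p under 0.05 in limma (log2 change -0.80, SE 0.32, adjusted p = 0.685, or -0.55 without H3). Of the 7, 3 lay above 0 and 4 below, with a median of -0.02 against -0.17 over all tested, and -0.11 against -0.12 without H3. The next largest value was that of miR-146a, known for damping inflammatory signalling (-0.24). The set also holds miR-1 and miR-133a, which are abundant in muscle fibres.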

How the data were processed

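Total RNA of rat soleus was labelled with Cy3 and hybridised to 1-colour Agilent arrays designed on miRBase release 16. The authors deposited, per array, 1 total signal intensity per miRNA with the software's error of it and a flag for detection, with spots combined and background subtracted by the scanner software and no normalization between arrays. The software version and genome build are not given in the sources used here. Undetected miRNAs are listed at 0.1. The deposited value table of the series held the same intensities, with 0 values that differed.

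The 22 control rows were left out. The 162 miRNAs found on all 12 arrays gave the 75th percentile that each array was scaled to. Scaled signals, in signal units again, had a floor of 5.17 and were log2 transformed. Diets and slides were compared in limma 3.58.1 (R 4.3.3) with p-values adjusted (Benjamini-Hochberg) over 193 miRNAs, those seen on 6 or more arrays. The fit was tested on simulated data. Members were also compared with exact two-sided permutation tests, and correlations used 100000 permutations. Named miRNAs were the 5 members, their star strands, the 3 most alike of each by Pearson's r, the marker lists, and the 2 of largest change in each of the wider sets. miR-205 and miR-455* fall outside this rule and were named after their values were seen. The members and lists were chosen with earlier results of these data known. The slide comparisons and the relations to summed marker lists were added after the values were seen. The alternatives changed the scaling, floor, detection filter, blocks, weights, test and value table, and left out each rat in turn. All 12 rats were used, since the sources do not say which the study left out.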

Additional observations from a re-analysis of the deposited data

Results flagged for a closer look

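In groups of 6 rats, the gap of the highest or lowest rat to its neighbour was set against the range of the group on the log2 scale, by Dixon's test. Of the 10 groups of miRNAs detected on all arrays 3 stood out, where chance gives about 1 in 20, and H3 accounted for all 3, in the high fat group. Its scaled signal was 2004 for miR-126, where the other high fat rats ran from 3951 to 5239. miR-143 was 2813 in H3 against 4770 to 6369, and miR-145 was 46.5 against 83.5 to 117. By the same measure miR-222 stood out in the control rat A89 (14.3) and in the high fat rat C25 (23.8), but this follows from the floor, since miR-222 was not detected in the remaining rats of either group and their values all stood at 5.17.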

How the results depend on the processing

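The diet comparison was recomputed under 26 alternatives, 12 of them leaving out 1 rat. Under each, limma or the alternative's own test called 0 miRNAs at an adjusted p under 0.05, and the smallest adjusted p lay between 0.432 and 0.998. At an unadjusted p under 0.05 limma called 2, and the alternatives between 1 and 15, with 15 without H1, 12 with array weights, 8 with slide as a block, 7 without C25, 6 without H10, 5 with slide and row as blocks, 5 with quantile normalization and 4 without A89. The changes of the members turned positive without scaling (0.0885 for miR-126, 0.094 for miR-143, 0.10 for miR-145 and 0.16 for miR-221), with array weights for miR-126 (0.0023) and miR-145 (0.038), and for miR-221 when scaled to all miRNAs (0.017) and with quantile normalization (0.0073). Leaving out 1 rat gave between -0.29 and -0.01 for miR-126, between -0.28 and -0.05 for miR-143, -0.30 to -0.02 for miR-145 and -0.38 (without C25) to 0.0030 (without C51) for miR-221. It gave -0.062 to 0.037 for the log ratio of miR-126 over miR-143, -0.11 to 0.10 for miR-126 over miR-145, -0.28 to 0.13 for miR-126 over miR-221, -0.082 to 0.064 for miR-143 over miR-145, -0.22 to 0.12 for miR-143 over miR-221 and -0.22 to 0.12 for miR-145 over miR-221. The number of pairs among miR-126, miR-143, miR-145 and miR-221 whose r had an adjusted p under 0.05 was 3, and 0 with Spearman's rho, 0 with quantile normalization, 1 with diet and slide centred and H3 left out, and from 0 (without H3) to 3 when 1 rat was left out. Without A110 or H10 the pair of miR-126 and miR-145 was lost, at an r of 0.77 and 0.75. With diet and slide centred, r with miR-221 was -0.10 for miR-126, -0.10 for miR-143 and -0.036 for miR-145, and for miR-126 it ran from -0.036 (without H3) to 0.20 (without C51). The cause of these changes was not tested. No paired analysis was possible because the rats of the groups share no replicate numbers. The signals of miR-222 and miR-143* near the floor leave no room to measure a fall.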
